A study of Homo sapiens with 18 samples.

Results

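Homeobox genes encode transcription factors that bind DNA through a shared fold, the homeodomain. In the embryo the HOX genes, which lie in 4 clusters on different chromosomes, are switched on in the order in which they lie in the cluster and so give cells a position along the body axis. PBX and MEIS proteins bind DNA together with HOX proteins, while DLX, MSX, sine oculis (for example SIX2), LHX, PITX, ONECUT and CUX genes act in limb, head, kidney, neural and other organ development. Cells of the Müllerian tract, from which serous ovarian cancers are thought to arise, use HOXA genes to pattern the oviduct and uterus.

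The members were the rows of the deposited RNA-seq table whose gene symbol names a HOXA, HOXB, HOXC or HOXD gene or a DLX, MSX, sine oculis, MEIS, PBX, LHX, ONECUT, PITX, TGIF or CUX gene. This rule used names and no measured value, and it found 42 of 12853 genes. A human annotation holds 78 gene symbols of this kind, so the table lists part of the family: 3 of 11 HOXA genes, 8 of 10 HOXB genes, 4 of 9 HOXC genes and 0 of 9 HOXD genes, with 27 genes outside the clusters. The filter that set which genes are listed is not given in the sources used here, and every listed member had more than 3 reads in all libraries of at least 1 line. A gene listed because it was high in 1 line had to differ from the other lines, so the counts over members below are descriptions of the listed genes. The names of the clusters and families were chosen with earlier results of these data known.

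The 18 libraries came from 6 established ovarian cancer cell lines, 3 replicates each, grown in the same medium and with no drug treatment named in the sample labels. A2780 was labelled sensitive to platinum and CP70 is a resistant derivative of it that was selected in culture. PEA1 (sensitive) and PEA2 (resistant) were derived from 1 patient with high-grade serous cancer before chemotherapy and after relapse. PEO1 (sensitive) and PEO4 (resistant) came from another such patient before and after resistance developed, both after platinum-based treatment had been given. Each pair is therefore 1 event of resistance, the labels do not say whether replicates were separate cultures, and p-values measure the spread between these libraries, which may be technical. The labels call A2780 and CP70 endometrial or ovarian, and in the fixed list of 10 serous and Müllerian epithelium markers A2780 had 0 genes above 3 reads in all 3 libraries and CP70 had 3. The 4 serous lines had 5 (PEA1), 10 (PEA2), 9 (PEO1) and 9 (PEO4), and PAX8, the lineage factor of this epithelium, had a mean log2 CPM from 7.30 to 8.35 in them and at most 1 read in any A2780 or CP70 library.

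Values are log2 CPM as deposited (CPM, reads of a gene scaled to a common library size), with 0.5 reads added to each count. Library depth lay between 1344098 and 7067336 reads on these genes, so the limit of 3 reads lay between 0.452 and 2.18 CPM. A value below 0 usually stands for 0 to 3 reads, and there the level depends on the depth of the library and on the added 0.5 reads. Differences are given as log2FC with the SE, from 1 limma fit of all 18 libraries, and a gene is called differentially expressed (DE) at |log2FC| above 2 and an FDR below 0.05 over all 12853 genes. Where 1 line had 0 reads in all 3 libraries, a lower bound on the fold is given from 3 reads per library of that line.

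**Figure D1:**
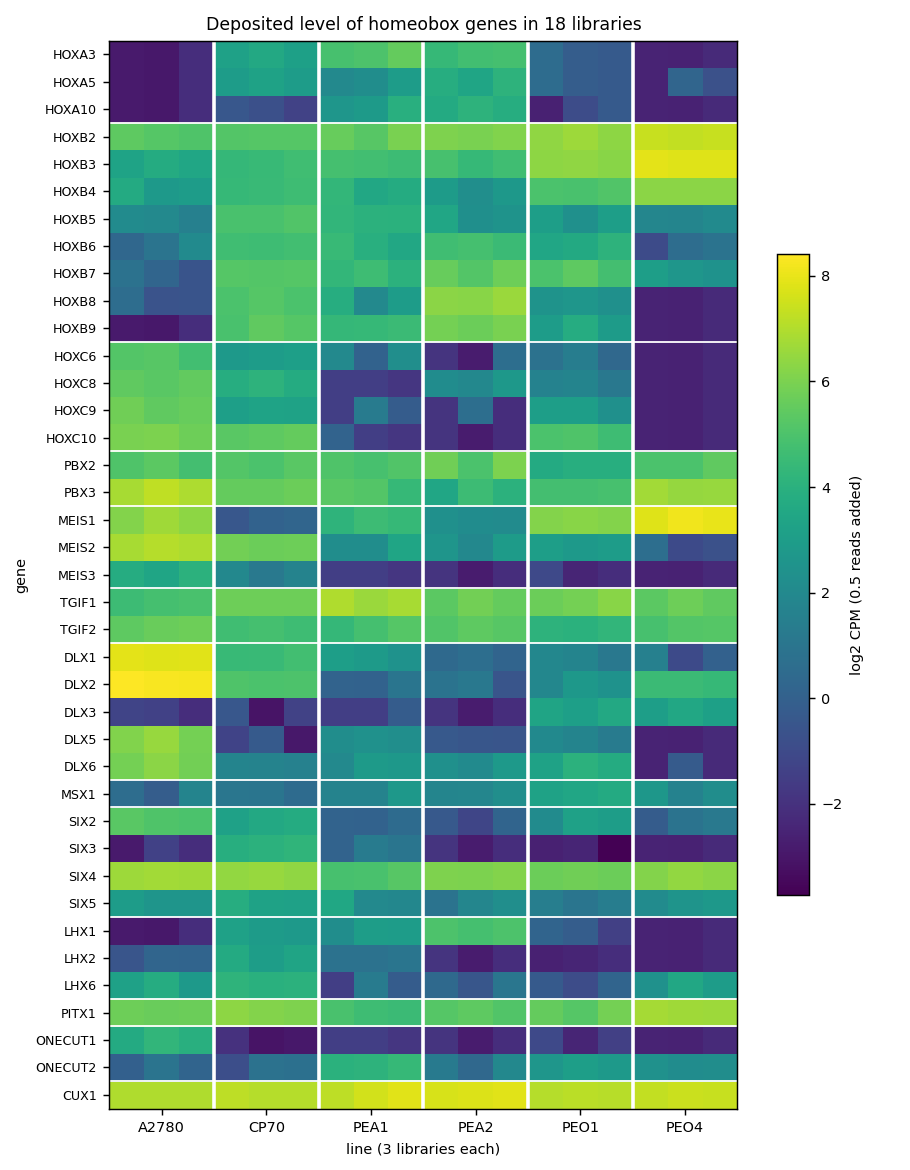
Deposited log2 CPM of 39 of the 42 homeobox genes (rows, grouped by family) in 18 libraries (columns, 3 for each line, separated by white lines). HOXC6, HOXC8, HOXC9 and HOXC10 have 0 reads in all 3 PEO4 libraries, seen as dark cells.

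The members differed between the lines of a pair more often than the listed genes at large. Of 42, 28 (66.7%) were DE in at least 1 pair, against 22.9% of all genes, and 16 (38.1%) in at least 2 pairs, against 5.8%. They did not move one way: 10 members (23.8%) were DE in opposite directions in 2 pairs, against 3.03% of all genes. HOXC6 and DLX5, 2 members (4.76%), were DE lower in all 3 pairs, where 0.132% of all genes were DE in 1 direction in all 3. These 2 genes were known when the families were chosen, so their share is a description. Of the calls, 3 rested on at most 3 reads in any library of either line (LHX2 and SIX3 in the PEA pair, LHX1 in the PEO pair). Without calls of this kind the counts were 28, 14 and 7 members, and all-gene shares were 22.7%, 5.54% and 2.87%. The median absolute log2FC of the members was 1.56 for CP70, 1.1 for PEA2 and 1.35 for PEO4 against their sensitive lines, and 0.422, 0.683 and 0.431 over all genes.

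Silent members were unevenly spread over the lines. In PEO4, 15 members (35.7%) had 0 reads in all 3 libraries, against 1.6% of all genes. In A2780 it was 6 (14.3%, all genes 5.92%), in PEA2 6 (14.3%, all genes 2.29%), in PEA1 3 (7.14%, all genes 3.35%), in PEO1 1 (2.38%, all genes 1.14%) and in CP70 0 (all genes 4.12%). The 6 silent members of A2780 included HOXA3, HOXA5, HOXA10, HOXB9 and LHX1. The 15 of PEO4 included the 4 HOXC genes, HOXB8, HOXB9, HOXA3, HOXA10 and DLX5. At the other end 12 members had more than 3 reads in every library of all 6 lines: HOXB2, HOXB3, HOXB4, HOXB5, PBX2, PBX3, MEIS1, TGIF1, TGIF2, SIX4, PITX1 and CUX1.

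**Figure D2:**
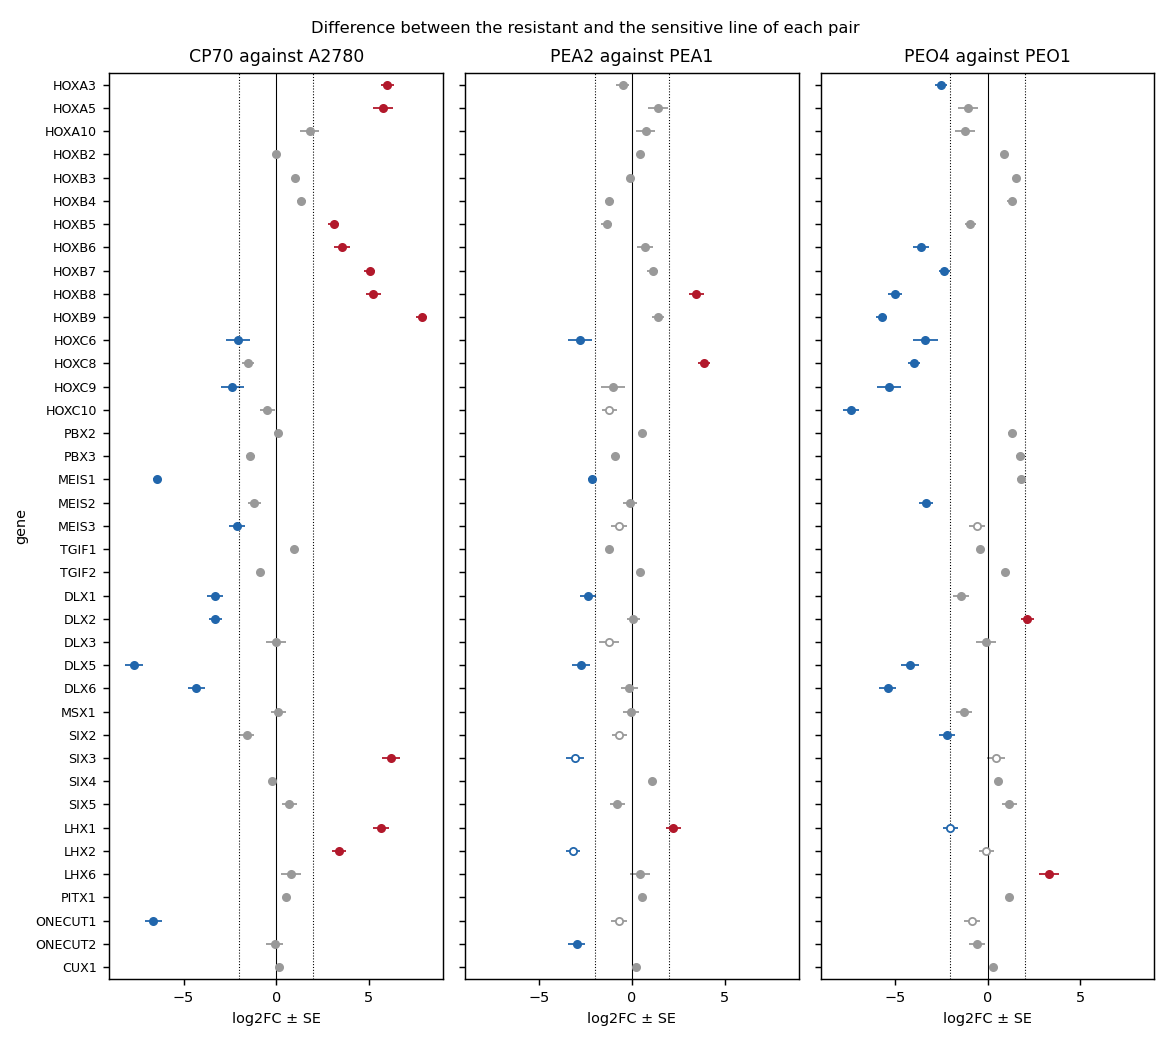
log2FC ± SE of 39 of the 42 genes in the resistant against the sensitive line of each pair. Red marks DE higher, blue DE lower and grey not DE, open circles mark genes with at most 3 reads in every library of both lines, and dotted lines mark -2 and 2. HOXB9 stands at 7.84 in the A2780 pair and at -5.71 in the PEO pair.

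The counts by pair were as follows. In CP70 against A2780, 10 members were DE higher (background 5.66% of all genes) and 9 DE lower (background 3.4%). In PEA2 against PEA1, 3 were DE higher (background 7.93%) and 10 DE lower (background 6.15%). In PEO4 against PEO1, 2 were DE higher (background 2.86%) and 14 DE lower (background 3.37%). As shares of the 42 members these are 23.8% and 21.4%, 7.14% and 23.8%, and 4.76% and 33.3%, so that the DE higher members of the PEA and PEO pairs lay near the background and the other counts above it.

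HOXC6 and DLX5 were the members DE lower in the resistant line of all 3 pairs, and both are shown in every library. The study's own list of genes lower in all 3 pairs at these thresholds names neither gene, and the reason was not tested. HOXC6 (chr12:54384408-54424607, GRCh37, plus strand), a HOX gene of the central group that is active in the thoracic region of the embryo, had log2 CPM of 5.15, 5.26 and 4.73 in A2780 and 2.80, 2.99 and 3.14 in CP70. In PEA1 it had 2.00, 0.10 and 2.29 (5, 1 and 8 reads) and in PEA2 -1.91, -2.80 and 0.68 (0, 0 and 3 reads). In PEO1 it had 0.84, 1.42 and 0.36 (5, 7 and 8 reads) and in PEO4 0 reads in every library. The libraries did not overlap in the A2780 and PEO pairs, and in the PEA pair the highest PEA2 library lay above the lowest PEA1 library. The log2FC was -2.07 ± 0.66 (FDR = 0.0164) for CP70, -2.80 ± 0.66 (FDR = 0.00106) for PEA2 and -3.35 ± 0.66 (FDR = 3.68e-04) for PEO4, where the bound is at least 1.64-fold lower. The CP70 call was lost without A2780 replicate 2 (log2FC -1.96) and without CP70 replicate 1 (log2FC -1.98). With quantile normalization the CP70 and PEO4 calls were lost (-1.95 and -1.90), and with 2 reads added to each count in place of 0.5 the PEA2 and PEO4 calls (-1.83 and -1.63), so each of the 3 calls of HOXC6 was lost in at least 1 alternative. The annotated span of HOXC6 overlaps those of HOXC4, HOXC8 and HOXC9 on the same strand. Reads in any shared exons could not be assigned to 1 gene with certainty.

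DLX5 (chr7:96649708-96654262, GRCh37, minus strand) is a distal-less gene of skeletal, craniofacial and placental development, and lies tail to tail beside DLX6. Its log2 CPM was 6.10, 6.54 and 5.85 in A2780 (245, 360 and 129 reads) and -1.29, -0.27 and -2.93 in CP70 (2, 3 and 0 reads). PEA1 had 2.24, 2.42 and 2.29 and PEA2 -0.32, -0.47 and -0.54. PEO1 had 2.03, 1.76 and 1.31, and PEO4 had 0 reads. Every library of the sensitive line lay above every library of the resistant line in all 3 pairs, and the level in A2780 stood far above that in the other sensitive lines. The log2FC was -7.66 ± 0.48 (FDR = 6.19e-11) for CP70, -2.76 ± 0.48 (FDR = 5.30e-05) for PEA2 and -4.17 ± 0.48 (FDR = 7.79e-07) for PEO4, where the bound is at least 2.93-fold lower. PEA2 had 1 to 2 reads per library against 6 to 8 in PEA1, so the second of these rests on few reads. Over the 6 line means, the genes of the table with the pattern most like DLX5 were SMYD3 (Pearson r = 0.988), CDC42SE1 (0.979) and C1orf198 (0.976), and for HOXC6 they were VWA8 (0.989), ACSF3 (0.982) and PUS1 (0.981). These are the highest of 12318 genes ranked over 6 points that share libraries, and they are descriptions.

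The HOXB cluster (chromosome 17, GRCh37, minus strand) was the best represented. HOXB2 (chr17:46618256-46622471) was the first listed gene at the anterior side and HOXB9 (chr17:46698518-46703720) the last at the posterior side. In the A2780 pair the log2FC was higher toward the posterior side. It was -0.02 for HOXB2, 0.99 for HOXB3, 1.35 for HOXB4, 3.10 for HOXB5, 3.55 for HOXB6, 5.03 for HOXB7, 5.24 for HOXB8 and 7.84 for HOXB9. HOXB5 to HOXB9 were DE higher in CP70, HOXB3 and HOXB4 passed the FDR but not the fold (1.01e-05 and 1.17e-04), and HOXB2 had an FDR of 0.914. HOXB9 had 0 reads in A2780 and its log2FC depends on the 0.5 reads added, so that its place above HOXB8 is not measured. The genes are neighbours measured in the same libraries, and all but HOXB2 have an annotated span that overlaps another listed HOXB gene. How reads in such overlaps were counted is not known, and the order is given as a description.

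In the PEO pair the posterior side was the lower one. The log2FC of PEO4 against PEO1 was 0.90 for HOXB2, 1.51 for HOXB3, 1.30 for HOXB4, -0.92 for HOXB5, -3.57 for HOXB6, -2.33 for HOXB7, -4.99 for HOXB8 and -5.71 for HOXB9. HOXB8 and HOXB9 had 0 reads in PEO4, so their order against HOXB6 is not measured. HOXB6 to HOXB9 were DE lower, and HOXB2, HOXB3 and HOXB4 passed the FDR with higher values in PEO4 and did not pass the fold. The PEA pair had 1 DE gene in the cluster, HOXB8. There HOXB4 and HOXB5 had log2FC of -1.23 (FDR = 1.70e-04) and -1.36 (FDR = 5.46e-04), while HOXB7 and HOXB9 had 1.13 (FDR = 0.00269) and 1.42 (FDR = 5.57e-04).

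**Figure D3:**
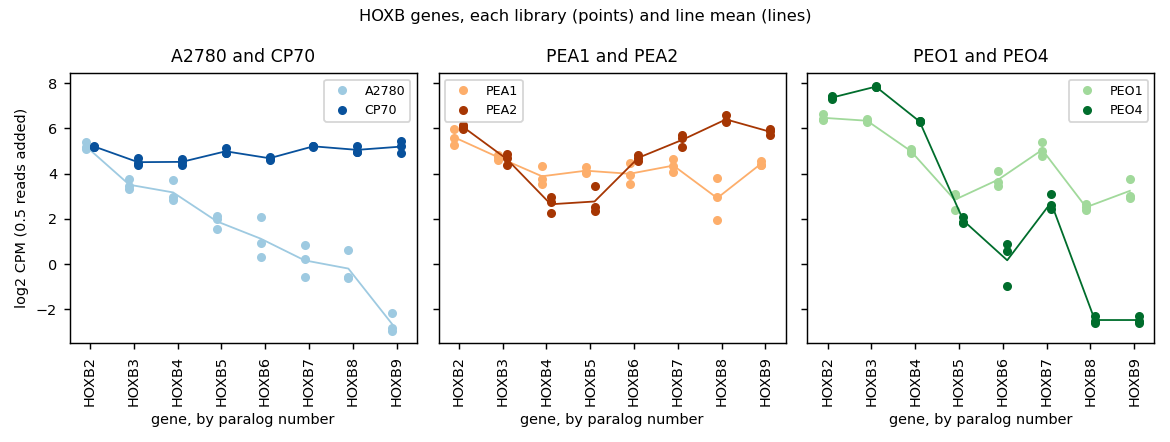
Log2 CPM of the 8 HOXB genes, in order of paralog number, in the sensitive line (light) and the resistant line (dark) of each pair. Points are libraries (3 per line) and lines join the means. CP70 lies above A2780 from HOXB3 to HOXB9, and PEO4 lies above PEO1 from HOXB2 to HOXB4 and below it from HOXB5 to HOXB9.

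The libraries of the posterior side of the cluster can be read one by one. HOXB9 had 0, 0 and 0 reads in A2780 and 185, 181 and 140 in CP70, at least 37.2-fold higher (log2FC 7.84 ± 0.31, FDR = 4.70e-14). In PEA1 it had log2 CPM of 4.37, 4.39 and 4.54 and in PEA2 5.88, 5.69 and 5.98, and in PEO1 3.0, 3.78 and 2.93. PEO4 had 0 reads in each library, at least 8.90-fold lower than PEO1 (log2FC -5.71 ± 0.31, FDR = 2.70e-11). The 2 silent lines were thus the sensitive line of one pair and the resistant line of another.

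HOXB8 (chr17:46688739-46692654), a central HOX gene known from blood and neural development, followed the same lines, with 5, 2 and 1 reads in A2780 against 190, 158 and 117 in CP70 (log2FC 5.24 ± 0.40, FDR = 1.19e-09). In the PEA pair its log2 CPM was 3.82, 1.97 and 2.96 in PEA1 and 6.31, 6.27 and 6.60 in PEA2 (log2FC 3.48 ± 0.40, FDR = 2.77e-07). In the PEO pair it was 2.51, 2.65 and 2.38 in PEO1 and 0 reads in PEO4, at least 5.15-fold lower (log2FC -4.99 ± 0.40, FDR = 5.69e-09). The libraries of each pair did not overlap, and PEA2 was the line with the highest level.

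HOXB7 (chr17:46684594-46710934) and HOXB6 (chr17:46673113-46682354) were DE in the A2780 and PEO pairs. HOXB7 had log2 CPM of 0.86, 0.22 and -0.58 in A2780 and 5.23, 5.18 and 5.20 in CP70 (log2FC 5.03 ± 0.30, FDR = 2.49e-11), and 4.98, 5.39 and 4.78 in PEO1 and 3.08, 2.63 and 2.45 in PEO4 (log2FC -2.33 ± 0.30, FDR = 2.85e-06). HOXB6 had 4, 7 and 9 reads in A2780 against 157, 103 and 100 in CP70 (log2FC 3.55 ± 0.43, FDR = 1.17e-06), and 33, 34 and 116 reads in PEO1 against 1, 4 and 4 in PEO4 (log2FC -3.57 ± 0.43, FDR = 1.43e-06). No library of one line reached the other line in these 4 comparisons. The annotated span of HOXB7 overlaps HOXB8 and HOXB9, and that of HOXB3 overlaps HOXB4, HOXB5 and HOXB6, all on the same strand.

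The genes were also summed in blocks by position, a split that was not planned and leaves out HOXB5. The blocks are not the usual groups of paralogs, since HOXB4 and HOXB6 to HOXB8 are central genes. HOXB2, HOXB3 and HOXB4 gave a mean of 57.6 CPM in A2780, 82.0 in CP70, 90.1 in PEA1, 97.6 in PEA2, 201 in PEO1 and 472 in PEO4. HOXB6, HOXB7, HOXB8 and HOXB9 gave 4.16 ± 0.782 CPM (SD, n = 3) in A2780, 132 ± 8.24 in CP70, 66.1 ± 8.6 in PEA1, 213 ± 21.8 in PEA2, 62.3 ± 9.96 in PEO1 and 7.63 ± 0.912 in PEO4. PEO4 thus held the highest HOXB2 to HOXB4 sum and the second lowest HOXB6 to HOXB9 sum of the 6 lines. PEA1 and PEO1, neighbours in the order of the HOXB6 to HOXB9 sum, differed by less than their spread. Per kilobase of exon, HOXB2 was the highest HOXB gene in PEO4 (66.9 CPM per kb), in PEO1 (36.0), in PEA1 (20.1) and in A2780 (15.1), while HOXB7 was the highest in CP70 (24.1) and HOXB8 in PEA2 (35.0).

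The HOXC genes (chromosome 12, plus strand) were highest in A2780 and silent in PEO4. HOXC10 (chr12:54378849-54384063), a posterior gene of the lumbar region and hind limb, had log2 CPM of 5.99, 6.01 and 5.74 in A2780, 5.32, 5.40 and 5.54 in CP70 and 4.96, 5.09 and 4.62 in PEO1. PEO4 had 0 reads of it in each library, at least 27.5-fold lower than PEO1 (log2FC -7.37 ± 0.41, FDR = 3.75e-11). PEA1 had 1, 0 and 0 reads and PEA2 0 in each. The gene was thus measured in 3 lines and had 0 or 1 reads per library in the other 3, and its log2FC is the lowest of any member in the PEO pair.

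HOXC9 (chr12:54388679-54397121) had 5.77, 5.46 and 5.57 in A2780 and 3.13, 3.30 and 3.26 in CP70 (log2FC -2.37 ± 0.63, FDR = 0.00479). In PEO1 it had 25, 23 and 34 reads and in PEO4 0, at least 6.61-fold lower (log2FC -5.31 ± 0.63, FDR = 1.05e-06). It was DE lower in the resistant line of both pairs, and in the PEA pair the reads were at most 5 in any library.

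HOXC8 (chr12:54402769-54406553) went in 2 directions. It had 0 reads in PEA1 and 8, 13 and 14 in PEA2, at least 2.39-fold higher (log2FC 3.87 ± 0.32, FDR = 2.92e-09), and 9, 9 and 14 reads in PEO1 and 0 in PEO4, at least 2.54-fold lower (log2FC -3.98 ± 0.32, FDR = 6.57e-09). In the A2780 pair its log2FC was -1.51 ± 0.32 (FDR = 7.25e-04), below the fold threshold, with log2 CPM of 5.46, 5.30 and 5.49 in A2780 and 3.82, 4.12 and 3.76 in CP70. Summed over the 4 HOXC genes the level was 185 ± 12.7 CPM (SD, n = 3) in A2780, 74.8 ± 4.62 in CP70, 41.6 ± 7.70 in PEO1, 5.74 ± 1.82 in PEA2 and 4.13 ± 1.18 in PEA1. The last 2 values differed by less than the spread of the PEA2 libraries.

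The HOXA genes (chromosome 7, minus strand) were at 0 reads in A2780 and present in CP70. HOXA3 (chr7:27145803-27192202), an anterior gene of thymus and pharyngeal development, had 56, 51 and 34 reads in CP70, at least 10.2-fold higher than A2780 (log2FC 5.99 ± 0.35, FDR = 2.27e-11). HOXA5 (chr7:27180671-27183300), a central gene of lung development, had 48, 40 and 30 reads, at least 8.54-fold higher (log2FC 5.74 ± 0.53, FDR = 2.20e-08). HOXA10 (chr7:27210224-27219880), the posterior gene that patterns the uterus, had 4, 2 and 1 reads in CP70 and was not DE (log2FC 1.81 ± 0.52, FDR = 0.00861). The annotated spans of the first 2 of these overlap on the same strand, so the assignment of reads in any shared exons is uncertain.

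The PEA lines carried the HOXA genes at levels that the PEO lines lacked. HOXA3 had log2 CPM of 4.88, 5.02 and 5.53 in PEA1 and 4.40, 4.73 and 4.84 in PEA2, against 4, 2 and 5 reads in PEO1 and 0 in PEO4. HOXA10 had 8, 10 and 26 reads in PEA1 and 24, 60 and 31 in PEA2, against at most 5 in any PEO library. No library of the PEA lines reached as low as one of the PEO lines for either gene. The log2FC of the PEA against the PEO lines was 6.12 ± 0.25 (FDR = 3.46e-14) for HOXA3 and 5.39 ± 0.37 (FDR = 8.20e-11) for HOXA10. Within the PEO pair HOXA3 was DE lower (log2FC -2.51 ± 0.35, FDR = 8.75e-06), which rests on 11 reads in the 3 PEO1 libraries and 0 in PEO4. The bound from 3 reads per library is a ratio of 0.852, below 1, so the reads set no lower limit on a fall, and the call was lost with quantile normalization (-1.17) and with 2 reads added (-0.99). Within the PEA pair the 3 HOXA genes had log2FC of -0.49, 1.40 and 0.74.

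**Figure D4:**
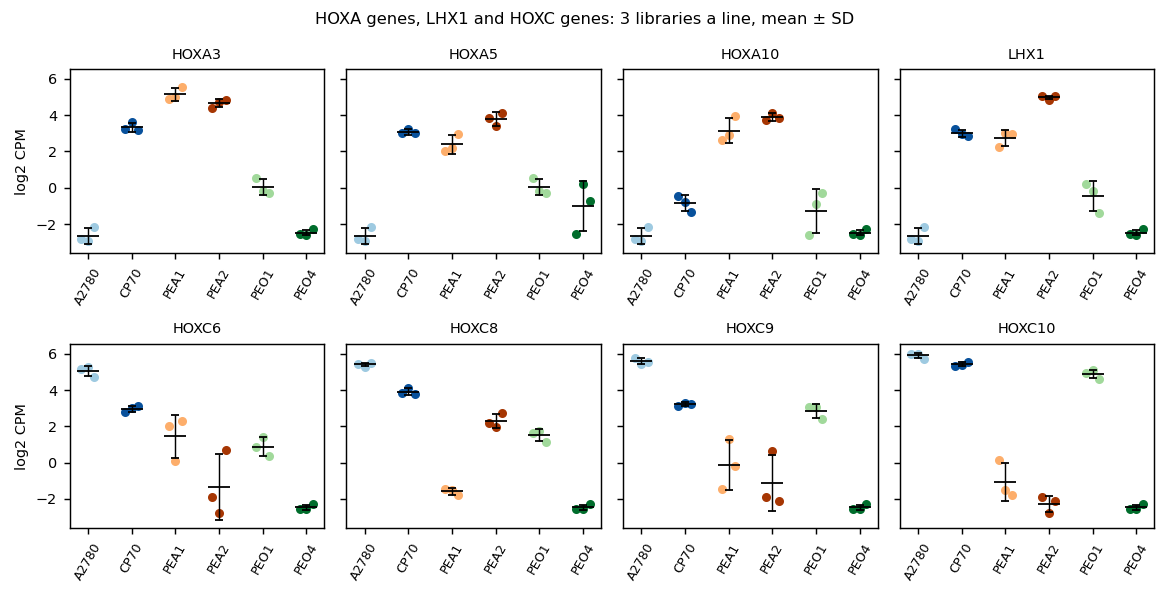
Log2 CPM of 3 HOXA genes, LHX1 and 4 HOXC genes in each line. Points are libraries (n = 3) and bars the mean ± SD. The value that stands for 0 reads depends on the depth of the library. For HOXC8 it is -1.46, -1.49 and -1.80 in PEA1 and -2.53, -2.58 and -2.30 in PEO4. HOXA3, HOXA10 and LHX1 have 0 reads in A2780 and PEO4, and the HOXC genes are highest in A2780.

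The DLX genes lie in convergent pairs, DLX1 beside DLX2 on chromosome 2 and DLX5 beside DLX6 on chromosome 7, and the members of a pair share enhancers in forebrain and limb. All 4 of these were DE lower in CP70. The 5 listed DLX genes summed to 691 CPM in A2780 and 59.7 in CP70, and to 8.25 to 34.5 in the serous lines. The promoter sequences of DLX1, DLX2 and DLX6 are shown because these genes moved together in the A2780 pair, MEIS1 because it had the lowest log2FC of the HOX cofactors in that pair, and LHX2 because it moved the other way. Each is the 250 bases before the start, 5′ to 3′ on the gene's strand, from RefSeq (GRCh38.p14), and capitals mark the CCAAT box and its reverse complement ATTGG.
DLX1 promoter, chr2:172085257-172085506, plus strand: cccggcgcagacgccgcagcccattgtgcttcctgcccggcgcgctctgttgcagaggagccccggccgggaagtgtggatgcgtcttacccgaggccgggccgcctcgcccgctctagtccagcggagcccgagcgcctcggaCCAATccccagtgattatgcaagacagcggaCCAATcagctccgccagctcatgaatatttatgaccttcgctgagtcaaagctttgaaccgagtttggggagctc
DLX2 promoter, chr2:172102901-172103150, minus strand: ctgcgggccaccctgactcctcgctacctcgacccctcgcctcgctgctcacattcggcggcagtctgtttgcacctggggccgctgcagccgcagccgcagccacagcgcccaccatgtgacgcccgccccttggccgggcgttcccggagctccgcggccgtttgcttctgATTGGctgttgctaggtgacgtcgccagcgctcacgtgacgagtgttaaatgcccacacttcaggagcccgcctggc
DLX6 promoter, chr7:97005303-97005552, plus strand: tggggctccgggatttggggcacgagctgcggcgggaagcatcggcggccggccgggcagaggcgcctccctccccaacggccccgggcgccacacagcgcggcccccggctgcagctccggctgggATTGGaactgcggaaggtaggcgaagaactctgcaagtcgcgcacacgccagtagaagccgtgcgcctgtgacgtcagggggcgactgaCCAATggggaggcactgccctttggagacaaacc
MEIS1 promoter, chr2:66434875-66435124, plus strand: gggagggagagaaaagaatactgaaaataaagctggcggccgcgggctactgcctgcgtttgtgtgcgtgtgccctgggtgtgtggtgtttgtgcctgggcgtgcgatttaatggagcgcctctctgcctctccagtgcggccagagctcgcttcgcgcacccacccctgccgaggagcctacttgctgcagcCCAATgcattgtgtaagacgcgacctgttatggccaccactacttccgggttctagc
LHX2 promoter, chr9:124011518-124011767, plus strand: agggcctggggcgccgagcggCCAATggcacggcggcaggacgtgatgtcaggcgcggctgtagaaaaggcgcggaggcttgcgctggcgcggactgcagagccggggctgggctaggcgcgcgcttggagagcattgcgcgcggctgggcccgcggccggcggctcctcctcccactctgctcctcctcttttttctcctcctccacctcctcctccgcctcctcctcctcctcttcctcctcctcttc
RefSeq promoters matched 21 of the 42 members in 40 records, and 5 of them, with 1 listed start each, are printed. The homeodomain core TAATTA, searched on both strands, was in 0 of the 40 records, against 4.35% of 35116 promoters of the same length. TGACAG, the MEIS core, was in 4 (all promoters 13%) and TGATTNAT, a HOX and PBX composite, in 3 (all promoters 2.48%), with none of these records among the 5 shown. CCAAT, which was added after the sequences had been seen and contains none of the other 3 motifs, was in 17 of 40 (all promoters 32.0%) and in each of the 5 shown. The 5 hold 16 (MEIS1) to 25 (DLX2, DLX6, LHX2) CpG dinucleotides, against a median of 11 over all promoters. A match of letters describes the window, and no match says only that these letters are not in it.

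DLX2 (chr2:172964166-172967628) was the highest member in A2780 per kilobase of exon (108 CPM per kb) and had log2 CPM of 8.41, 8.30 and 8.26 there, against 5.06, 4.96 and 5.04 in CP70. DLX1 (chr2:172949468-172954405) had 7.92, 7.80 and 7.88 in A2780 and 4.45, 4.49 and 4.75 in CP70. The log2FC was the same to 2 decimals, -3.30 ± 0.35 (FDR = 1.53e-07) for DLX2 and -3.30 ± 0.43 (FDR = 2.75e-06) for DLX1. In the other pairs the neighbours parted. DLX1 was DE lower in PEA2 (11, 10 and 9 reads in PEA1 against 2, 5 and 2, log2FC -2.38 ± 0.43, FDR = 7.67e-05), where DLX2 had a log2FC of 0.08 ± 0.35. DLX2 was DE higher in PEO4, with log2 CPM of 1.91, 2.73 and 2.46 in PEO1 and 4.55, 4.56 and 4.38 in PEO4 (log2FC 2.13 ± 0.35, FDR = 5.05e-05), and this call was lost without PEO1 replicate 1 (log2FC 1.90). DLX1 had a log2FC of -1.41 ± 0.43 there.

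DLX6 (chr7:96634865-96640352) followed DLX5 in the A2780 and PEO pairs. It had log2 CPM of 5.86, 6.29 and 5.83 in A2780 and 1.75, 1.68 and 1.60 in CP70 (log2FC -4.32 ± 0.45, FDR = 1.48e-07). PEO1 had 29, 46 and 87 reads and PEO4 0, 2 and 0 (log2FC -5.38 ± 0.45, FDR = 1.21e-08). In the PEA pair, where DLX5 was DE lower, DLX6 had a log2FC of -0.13 ± 0.45 with 5 to 15 reads per library. DLX3, an epidermal and placental gene, had 22 to 79 reads in the PEO libraries and at most 4 in any other, and MSX1, a gene of tooth and limb development, was not DE in any pair.

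**Figure D5:**
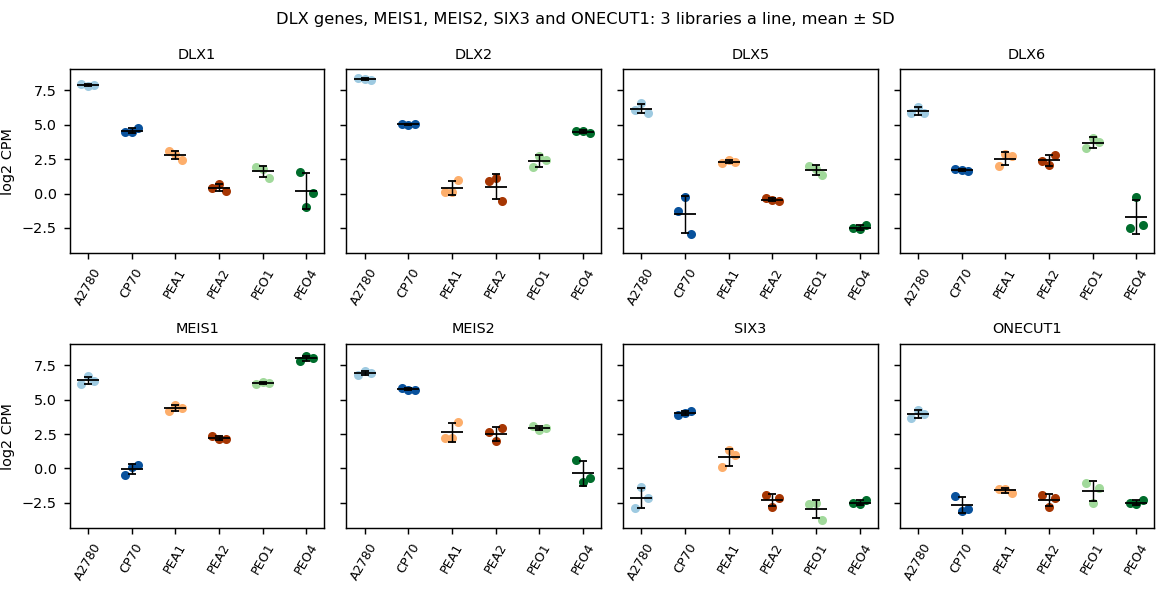
Log2 CPM of DLX1, DLX2, DLX5, DLX6, MEIS1, MEIS2, SIX3 and ONECUT1 in each line. Points are libraries (n = 3) and bars the mean ± SD. The 4 DLX genes, MEIS1 and ONECUT1 are lower in CP70 than in A2780, SIX3 is higher in CP70, and MEIS2 is lower in PEO4 than in PEO1.

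Among the cofactors of the TALE class, which extend the reach of HOX proteins on DNA, MEIS1 (chr2:66660584-66801001) had the lowest log2FC of its class in the A2780 pair. It had 255, 400 and 183 reads in A2780 and 4, 4 and 4 in CP70 (log2FC -6.44 ± 0.19, FDR = 6.11e-16). In the PEA pair its log2 CPM was 4.15, 4.58 and 4.39 in PEA1 and 2.34, 2.16 and 2.12 in PEA2 (log2FC -2.17 ± 0.19, FDR = 7.97e-09). In the PEO pair it was 6.16, 6.25 and 6.18 in PEO1 and 7.81, 8.15 and 8.03 in PEO4, where the log2FC of 1.80 ± 0.19 (FDR = 3.02e-07) did not pass the fold. The lines did not overlap in any pair, and the resistant line was the lower in the first 2 and the higher in the third.

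PBX2 and PBX3, HOX partners, were above 3 reads in every library and DE in no pair. PBX3 passed the FDR but not the fold in CP70 (log2FC -1.40 ± 0.23), PEA2 (-0.92 ± 0.23) and PEO4 (1.77 ± 0.23). PBX2 did so in PEA2 (0.56 ± 0.22) and PEO4 (1.31 ± 0.22). MEIS2 (chr15:37181405-37393500) was DE lower in PEO4, with 25, 19 and 51 reads in PEO1 and 4, 1 and 1 in PEO4 (log2FC -3.30 ± 0.37, FDR = 6.21e-07). MEIS3 was DE lower in CP70 (log2 CPM 3.79, 3.39 and 4.07 in A2780 and 1.94, 1.17 and 1.72 in CP70, log2FC -2.14 ± 0.43, FDR = 4.88e-04), and this call was lost without A2780 replicate 3 (-1.98), without CP70 replicate 2 (-1.92) or with quantile normalization (-1.79). TGIF1 and TGIF2, repressors of retinoid and TGF-beta signalling, stayed within an absolute log2FC of 1.22 in the 3 pairs.

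The sine oculis genes act with EYA proteins in muscle, kidney and sensory organs. SIX4 had a log2FC of 1.07 ± 0.11 (FDR = 6.38e-08) in the PEA pair, below the fold threshold. SIX3 (chr2:45168841-45173210), an anterior brain and eye gene, had 0, 1 and 0 reads in A2780 and 90, 70 and 69 in CP70 (log2FC 6.17 ± 0.48, FDR = 1.65e-09). It was at most 3 reads in any library of the other lines, so its call in the PEA pair (1, 3 and 3 reads in PEA1, 0 in PEA2) has no fold that can be read.
SIX2, a gene of kidney progenitors, was DE lower in PEO4 (13, 26 and 53 reads in PEO1 and 2, 5 and 5 in PEO4, log2FC -2.19 ± 0.41, FDR = 2.45e-04), a call that was lost without PEO1 replicate 2 (-1.97), without PEO4 replicate 1 (-1.78) or with 2 reads added (-1.82).

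LHX genes encode LIM homeobox factors. LHX1 was, with HOXB8, 1 of the 2 members DE in all 3 pairs in mixed directions. This gene (chr17:35294084-35301912), which acts in kidney and Müllerian duct formation, had 0 reads in A2780 and 56, 32 and 27 in CP70, at least 8.08-fold higher (log2FC 5.65 ± 0.41, FDR = 6.09e-10). It had log2 CPM of 2.24, 3.03 and 2.96 in PEA1 and 5.04, 4.85 and 5.03 in PEA2 (log2FC 2.23 ± 0.41, FDR = 9.82e-05, and 1.98 without PEA1 replicate 1, which ends the call). In the PEO pair it had 3, 2 and 2 reads in PEO1 and 0 in PEO4, so the call there has no fold that can be read, and it was also lost without PEO1 replicate 1 or 2 or PEO4 replicate 1 or 2 (-1.69 to -1.98).
LHX2 (chr9:126763949-126795580), a gene of eye, forebrain and hair follicle, had 2, 4 and 2 reads in A2780 and 77, 34 and 38 in CP70 (log2FC 3.39 ± 0.39, FDR = 5.03e-07, and 1.99 with quantile normalization, which ends the call), and was at most 3 reads in any library of the serous lines. LHX6 (chr9:124964856-124991905), a factor of interneurons, had 2, 1 and 7 reads in PEO1 and 15, 35 and 19 in PEO4 (log2FC 3.33 ± 0.55, FDR = 6.29e-05). It and DLX2 were the 2 members DE higher in PEO4.

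The remaining families held single changes. ONECUT1 (chr15:53047250-53083275), a factor of liver and pancreas, had 45, 73 and 34 reads in A2780 and 1, 0 and 0 in CP70 (log2FC -6.63 ± 0.45, FDR = 2.18e-10), and at most 2 in any serous library. ONECUT2 (chr18:55102606-55158530) had log2 CPM of 4.03, 4.13 and 4.39 in PEA1 and 1.26, 0.37 and 1.96 in PEA2 (log2FC -2.98 ± 0.44, FDR = 8.31e-06). In both comparisons the lines did not overlap. PITX1 and CUX1, present in every library, stayed within an absolute log2FC of 1.17 in the 3 pairs.

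Marker genes of other cell types and lineages moved within the pairs too. In the PEA pair 8 of the 10 serous markers were DE higher in PEA2 (background 7.93% of all genes). The 10 markers summed to 3680 to 3910 CPM in PEA2 against 437 to 591 in PEA1. The fibroblast markers summed to 366 to 447 CPM in PEA1, all of it COL1A1, and to 3.45 to 6.40 in PEA2. Of 4 leukocyte and 3 endothelial markers on the fixed lists, only PTPRC and CDH5 were among the listed genes. They had 20.1 to 25.1 and 25.3 to 36.1 CPM in PEA2 and 0 in PEA1. In CP70 3 of 4 fibroblast markers (COL1A2, DCN, LUM) and 3 of 10 serous markers (EPCAM, KRT8, KRT18) were DE higher than in A2780 (background 5.66%). In the PEO pair COL1A2 was DE higher (background 2.86%) and KRT7 DE lower (background 3.37%). The part of these differences in the values of the homeobox genes was not tested. In bulk RNA of these cell lines, fewer cells that express a gene and less RNA per cell cannot be told apart.

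Of 21 chromatin and CDX genes on a fixed list of HOX regulators (trithorax and Polycomb components), 18 were in the table, with 1 DE in CP70 (CBX7, log2FC 2.75 ± 0.32, FDR = 7.11e-07), 1 in PEA2 (CBX2, log2FC -5.16 ± 0.50, FDR = 2.43e-08) and 0 in PEO4. In PEO4 limma gave 9 at an unadjusted p below 0.05 and 6 at an FDR below 0.05 (1 higher, 5 lower), and the fit with voom weights also called 0. The list's median log2FC was -0.11, -0.40 and -0.02. Of all genes, 5.66% were DE higher and 3.4% DE lower in CP70, 7.93% and 6.15% in PEA2, and 2.86% and 3.37% in PEO4. The counts of this list and of the partners below are to be read beside these shares. Of 13 partners (EYA, LMO, LDB, DACH and PKNOX genes) 6 were listed. The LIM-only genes LMO1 and LMO4 were DE lower in CP70 (log2FC -6.07 ± 0.70, FDR = 5.50e-07, and -6.61 ± 0.14, FDR = 2.46e-18). LMO1 had 67, 67 and 23 reads in A2780 and 0, 1 and 1 in CP70. EYA4, a partner of sine oculis proteins, was DE lower in PEA2 (-5.91 ± 0.63, FDR = 1.15e-07) and in PEO4 (-2.55 ± 0.63, FDR = 0.00291). It had 27, 30 and 53 reads in PEA1 and 0, 0 and 3 in PEA2. PEO1 had 12, 5 and 14 reads of it and PEO4 0, 2 and 1. The size of the LMO1 and EYA4 differences depends on depth and on the 0.5 reads added. Of 19 non-coding RNAs of the clusters 2 were listed. HOXC-AS2 had 34, 36 and 18 reads in A2780, 15, 15 and 18 in CP70, 11, 5 and 17 in PEO1 and 0 in the other 3 lines, and HOXD-AS1 had 40, 91 and 43 reads in PEA2, 11, 8 and 16 in PEA1 and at most 11 in any other library.

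The lines also differed by origin. In A2780 and CP70 against the 4 serous lines, 16 members were DE higher (background 4.6%) and 6 DE lower (background 15.9%), as shares of members 38.1% and 14.3%. With quantile normalization, which moved the median of all genes from -0.07 to 0.20, the counts were 17 and 1. Lines are the units of origin and libraries are what the test counts, so the p-values do not measure the spread between patients. The 3 highest log2FC were HOXC10 (5.89 ± 0.25, FDR = 1.62e-14), DLX1 (4.96 ± 0.26, FDR = 5.88e-13) and MEIS3 (4.73 ± 0.27, FDR = 1.50e-12), with DLX2 at the same value as MEIS3. Among the DE lower members were HOXA10 (-2.58 ± 0.32, FDR = 3.10e-07) and DLX3 (-2.43 ± 0.34, FDR = 1.53e-06), and with quantile normalization HOXA10 had -1.03 and DLX3 -0.69. HOXC10 was also high in PEO1, so the mean over the 4 serous lines covers unlike lines. All 4 HOXC genes and 4 of 5 DLX genes were DE higher in the mean of A2780 and CP70. For DLX5 the mean log2 CPM was -1.49 in CP70, against 2.32 in PEA1, -0.45 in PEA2, 1.70 in PEO1 and -2.47 in PEO4. For DLX6 it was 1.67 in CP70, against 2.54, 2.41, 3.68 and -1.70 in the same lines. These 2 calls rest on the level in A2780, and both were lost with 2 reads added (1.77 and 1.68). Of the 8 HOXB genes 0 were DE in either direction. For those 8, limma gave 6 at an unadjusted p below 0.05 and 6 at an FDR below 0.05, and the fit with voom weights also called 0.

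Between the patients of the serous lines, PEA1 and PEA2 against PEO1 and PEO4, 8 members were DE higher (background 6.27%) and 7 DE lower (background 7.04%). The highest were HOXA3 and HOXA10, given above, and LHX1 (5.32 ± 0.29, FDR = 2.78e-12). The lowest were DLX3 (-4.99 ± 0.39, FDR = 6.33e-10) and MEIS1 (-3.81 ± 0.14, FDR = 4.97e-15). HOXB8 and HOXB9 were also DE higher in the PEA lines and HOXB3 and HOXB4 DE higher in the PEO lines.

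Whether a pair's difference is the same as that of another pair was tested in the same fit as a difference of log2FC. Of the 42 members, 21 differed between the A2780 and PEA pairs (background 20.4%), 22 between the A2780 and PEO pairs (background 14.9%) and 23 between the PEA and PEO pairs (background 19.4%). The difference was widest for HOXB9, 13.55 ± 0.44 between the A2780 and PEO pairs (FDR = 4.94e-15), with CP70 above A2780 and PEO4 below PEO1. The 3 pairs share no library.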

How the data were processed

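RNA of 18 libraries, 3 of each of 6 lines, was measured. The authors aligned reads to hg19 (Bowtie2 is named in the submitters' processing notes), assigned them to known genes with featureCounts from a directional kit, and deposited log2 CPM values normalized with limma, with 0.5 reads added. Their versions, the strand setting and the filter that left 12853 genes are not given in the sources used here. Whole reads (tolerance 0.01) were recovered from all deposited values and served for depth, for genes at 0 and for 2 alternatives. Depth ran from 1344098 to 7067336 reads per library, and bounds cover counting error only.

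The deposited values were fitted with limma 3.58.1 in R 4.3.3 (1 mean per line, 18 libraries, variance trend), with Benjamini-Hochberg adjustment over 12853 genes and the thresholds of |log2FC| above 2 and FDR below 0.05. The calculation was tested on simulated data. Values were named for HOXC6 and DLX5, members DE in 2 or more pairs, the 3 highest and 3 lowest DE members of each pair whose libraries do not overlap, and of each comparison by origin, with other members mostly by ranges. Of the 42 members 3 are not reported here by name, and the counts over members include them. The members and lists were chosen with earlier results of these data known. Spans came from GENCODE on GRCh37 (41 members by identifier, 1 by symbol), and exon lengths from the same annotation. For HOXB4 the deposited position lies more than 1 kb outside the annotated span. Same-numbered libraries of a pair were checked for shared deviations. Alternatives were a pair fitted alone, a mean log2 value above 0, quantile normalization, a replicate block, no variance trend, 2 reads added, voom weights, |log2FC| above 1, and leaving out each library. A call resting on more than 3 reads in a library of either line was chosen after seeing the data.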

Additional observations from a re-analysis of the deposited data

Results flagged for a closer look

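For 10 members the resistant line lay above the sensitive line in one pair and below it in another, both DE, with 3 libraries per line. The difference between the pairs was also DE in the limma fit. The members were picked by their opposite calls in that same fit, so this difference passes the fold threshold by construction. Its FDR is therefore no separate support. Between the A2780 and PEO pairs the difference in log2FC was 8.50 for HOXA3, 7.12 for HOXB6, 7.36 for HOXB7, 10.23 for HOXB8, 13.55 for HOXB9 and 7.67 for LHX1, with CP70 above A2780 and PEO4 below PEO1. DLX2 ran the other way between these pairs, with -5.43. Between the PEA and PEO pairs the difference was 8.46 for HOXB8, 7.85 for HOXC8 and 4.24 for LHX1, with PEA2 above PEA1. Between the A2780 and PEA pairs it was 6.57 for LHX2 and 9.27 for SIX3.

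Adjusted over all genes, the FDR of these differences ran from 4.94e-15 (HOXB9) to 3.76e-06 (LHX1 between the PEA and PEO pairs). The differences for LHX1 against the PEO pair and for LHX2 and SIX3 against the PEA pair include a pair in which no library held more than 3 reads, so their size depends on depth and on the 0.5 reads added. The HOXA3, HOXB8, HOXB9 and HOXC8 differences include lines with 0 reads and depend on that addition in the same way, and for HOXA3 in the PEO pair the reads set no lower limit on the fold (ratio 0.852 against 3 reads per library).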

How the results depend on the processing

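No result reversed. Of 85 DE results of single members in the 3 pairs and the 2 comparisons by origin, 63 stayed DE in every alternative that kept them, and the filter on mean log2 value removed 15. With 2 reads added 14 fell below the threshold, with quantile normalization 11 and with voom weights 1, while no call changed with the pair fitted alone or without the variance trend. Same-numbered libraries of a pair had correlations of deviations from -0.184 to 0.22. With 3 libraries per line this check cannot exclude a shared effect. The replicate block left all counts as they were (10 higher and 9 lower in CP70, 3 and 10 in PEA2, 2 and 14 in PEO4).

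At |log2FC| above 1 the counts moved to 7 higher in PEA2, 10 higher in PEO4, 14 lower in A2780 and CP70 against the serous lines, and 15 higher and 13 lower in the PEA against the PEO lines. Quantile normalization moved the 6 lower by origin to 1, with the median of all genes moved from -0.07 to 0.20. Leaving out each library gave 10 to 13 higher and 8 to 9 lower in CP70, 2 to 3 and 10 to 10 in PEA2, 1 to 2 and 12 to 14 in PEO4, 15 to 16 and 5 to 6 by origin, 8 to 9 and 7 to 8 between the patients, and 21 to 23, 21 to 23 and 22 to 24 for the differences between pairs. The 1 higher in PEO4 came without PEO1 replicate 1 (DLX2). HOXC6, SIX3 and LHX2 lost their PEA2 call with 2 reads added (-1.83, -1.77 and -1.80), and HOXC6, LHX1, HOXA3 and SIX2 their PEO4 call (-1.63, -0.64, -0.99 and -1.82). With quantile normalization HOXC6, MEIS3 and LHX2 lost their CP70 call (-1.95, -1.79 and 1.99) and HOXC6, LHX1 and HOXA3 their PEO4 call (-1.90, -0.86 and -1.17), and LHX1 lost it with voom weights (-1.91). The cause was not tested. Depth limits genes under 3 reads, most in PEA1, whose libraries held 1344098 to 1670866 reads.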
